A study of Mus musculus with 10 samples.

Results

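The mitochondrial genome transcripts were examined in mouse leukaemic progenitor cells as the genes whose mouse symbol starts with mt-. The rule gave 37 of the 52636 genes in the count table: 13 protein-coding (mRNA) genes, 2 ribosomal RNA (rRNA) genes and 22 transfer RNA (tRNA) genes. All 37 passed the filter on low counts, beside 15916 genes tested in all. Every member is read from the circular mitochondrial chromosome, written chrM in the mouse build mm10.

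The cells came from a leukaemia called DIN, made by putting 3 MSCV retroviral vectors into fetal liver cells. All 10 libraries share the vectors for IDH2 R140Q and NRAS G12D, and the DNMT3A R882H vector (TRI-DNMT3AR882H) was silenced by doxycycline through the transactivator TTA carried with NRAS G12D. Stored cells from sick mice (hosts irradiated with 5.5 Gy) were passed to new Ptprca mice, which received doxycycline (R882H off) or normal chow and water (R882H on), and cKit+/Cd11b- cells were sorted from marrow and spleen. There were 4 day 14 off libraries and 2 each of day 14 on, day 5 off and day 5 on. The labels give neither the age of the mice, nor the organ of a library, nor whether libraries are separate mice, so p-values measure only the spread between these libraries. No library combined doxycycline with an unregulated vector. Doxycycline is known to inhibit protein synthesis on mitochondrial ribosomes, and here the drug and the loss of R882H cannot be told apart.

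The mitochondrial genome is transcribed from promoters on both strands into long precursors. Most mRNAs and rRNAs are separated by tRNAs, and cutting the tRNAs out of the precursor by RNase P at one end and ELAC2 at the other frees the RNAs between them. The mRNAs encode core subunits of respiratory complexes I, III, IV and V, the rRNAs form the core of the mitochondrial ribosome, and the tRNAs read the codons there. Most mature mRNAs of the organelle carry short poly(A) tails, so a library primed on poly(A), as QuantSeq is, reads those from the 3′ end. A tRNA is counted only where a tailed, precursor or internally primed RNA covers it.

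The tRNA genes on which the results turn are shown first, 5′ to 3′ as transcribed, with T for U and the anticodon in capitals. The sequences are from GENCODE release M21 on mm10. The first 3 are the tRNA genes called at day 14, and the last 3 form a stretch on the minus strand between mt-Nd2 and mt-Co1 and were called in the comparisons of day 14 with day 5.
mt-Tt (threonine, chrM:15289-15355, plus strand): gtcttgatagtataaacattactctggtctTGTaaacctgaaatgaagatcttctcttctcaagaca
mt-Tp (proline, chrM:15356-15422, minus strand): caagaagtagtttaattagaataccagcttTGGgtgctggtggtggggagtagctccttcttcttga
mt-Tq (glutamine, chrM:3772-3842, minus strand): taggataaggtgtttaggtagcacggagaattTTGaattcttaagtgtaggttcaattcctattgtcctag
mt-Tn (asparagine, chrM:5089-5159, minus strand): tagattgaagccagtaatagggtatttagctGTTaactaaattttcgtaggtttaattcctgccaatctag
mt-Tc (cysteine, chrM:5192-5257, minus strand): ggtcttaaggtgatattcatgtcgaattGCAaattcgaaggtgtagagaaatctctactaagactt
mt-Ty (tyrosine, chrM:5260-5326, minus strand): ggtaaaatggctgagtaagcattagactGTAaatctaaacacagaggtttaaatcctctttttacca

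The 22 tRNA genes were 59 to 75 bases long, and the reads were 75 to 100 bases long, per the labels' protocols. An untrimmed read is therefore as long as a whole tRNA gene or longer, and a tRNA count may include reads that reach into a neighbour. Aligned reads were not examined. Genes on the plus strand were 28 of the 37 and genes on the minus strand 9, namely mt-Nd6 and 8 tRNAs. How the authors' counting treated strand is not given in the sources used here, so a gene and a partner on the other strand may share reads.

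A further limit on the mRNA counts is a stretch of nuclear DNA on mouse chromosome 1 that carries old copies of 7 mitochondrial mRNA genes. Over the aligned bases, Gm28661 (mt-Co2), Gm10925 (mt-Atp6), Gm28437 (mt-Co3), Gm10222 (mt-Nd4l) and Gm28439 (876 bases of mt-Nd4) were 100% identical to their mitochondrial gene. Gm28438 differed from mt-Nd3 at 1 of 345 bases and Gm29216 from mt-Co1 at 6 of 492 bases. The windows below show how alike the pairs are: capitals mark all mismatches of each pair, and the mt-Nd4l stretch is shared letter for letter by Gm10222.
mt-Co1 (chrM:6381-6407, plus strand): ggTCtAAcCggaAttgttttatccaac
Gm29216 (chr1:24616171-24616197, minus strand): ggATtGGcAggaTttgttttatccaac
mt-Nd3 (chrM:9459-9475, plus strand): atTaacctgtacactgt
Gm28438 (chr1:24613103-24613119, minus strand): atCaacctgtacactgt
mt-Nd4l and Gm10222 (chrM:10081-10170, plus strand): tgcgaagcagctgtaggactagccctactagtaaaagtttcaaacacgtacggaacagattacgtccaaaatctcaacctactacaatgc

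Copies that cover nearly the whole gene held close to equal counts. Of the counts of mt-Co2 plus its copy, the copy held 48.9% to 50.1% across the 10 libraries, and the copies of mt-Atp6 and mt-Co3 held 49.7% to 50.9% and 49.5% to 50.5%. For mt-Nd3 the copy held 46.7% to 50.5% and for mt-Nd4l 46.6% to 51.1%. Shares were lower where the copy covers part of the gene, at 38.7% to 42.0% for mt-Co1 and 6.97% to 10.8% for mt-Nd4. The levels of these 7 mRNAs in the table are thus uncertain by up to about the copy's count, and levels of different mRNAs were not ranked.

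**Figure D1:**
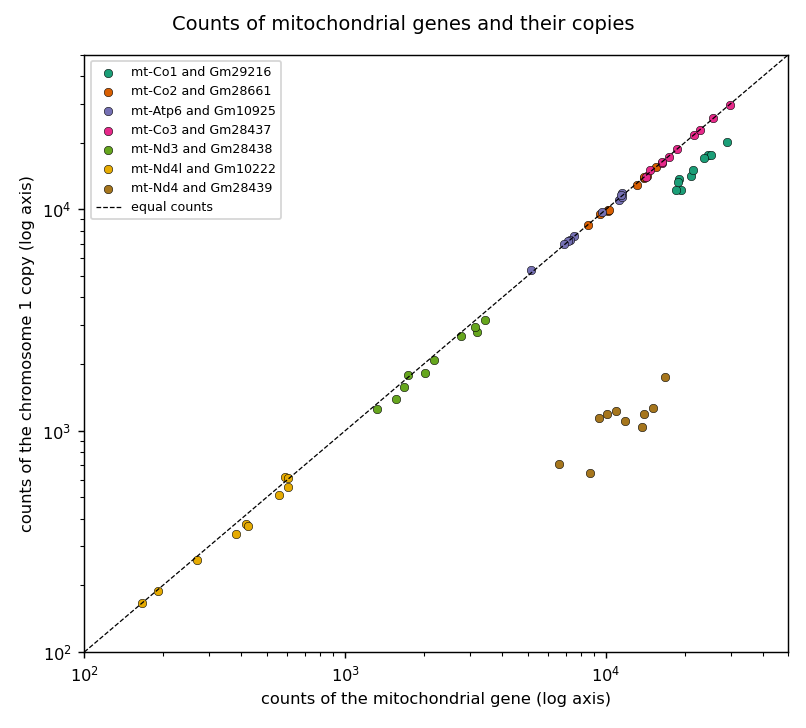
Counts of 7 mitochondrial mRNA genes (x axis, log) against their chromosome 1 copies (y axis, log), 1 point per library and pair; the dashed line marks equal counts. Points of mt-Co2, mt-Atp6, mt-Co3, mt-Nd3 and mt-Nd4l lie on or near the line, with copy shares between 46.6% and 51.1%, while those of mt-Co1 and mt-Nd4 lie below it.

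Of the whole series, library totals ran from 9292644 to 14340624 counts. Mouse Dnmt3a stood at 31.9 to 39.2 CPM (counts scaled to library size) in the day 14 off libraries and at 55.9 and 73.6 in the day 14 on libraries. At day 5 it was 65.6 and 50.2 off and 52.8 and 51.2 on. Whether the vector's transcript is counted in that gene is not given in the sources used here, so these values do not check the labels. Kit, the marker of the sort, stood at 30.9 to 36.4 CPM in day 14 off and at 88.9 and 98.1 in day 14 on libraries. At day 5 it was 43.3 and 40.3 off and 51.3 and 56.2 on. The day 14 off libraries were thus the lowest in Kit RNA and the day 14 on libraries the highest. Kit and Cd34 together stood at 32.6 to 40.4 CPM in day 14 off and 156 to 181 in day 14 on.

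As a share of all counts, the 37 genes together took 2.05% to 3.61% of a library. The 95% exact Clopper-Pearson interval of a class share reached at most 0.012 percentage points to either side, for counting error only. The 13 mRNA genes took 1.08%, 1.14%, 1.04% and 1.02% in the 4 day 14 off libraries and 0.839% and 0.910% in the 2 day 14 on libraries. They took 1.02% and 1.32% in day 5 off and 1.14% and 1.08% in day 5 on. The day 14 on libraries were thus the lowest 2 of the 10, and the other 3 groups overlapped.

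The 2 rRNA genes, mt-Rnr1 and mt-Rnr2 of the small and large mitochondrial ribosomal subunit, took the larger share in most libraries and varied most within groups. Their share was 1.33%, 1.12%, 0.926% and 1.64% in day 14 off and 1.58% and 1.20% in day 14 on. At day 5 it was 2.25% and 1.54% off and 2.35% and 1.21% on, so that replicate 1 was the higher in both groups. Within day 14 off, the nuclear rRNA locus gene Gm42418 had its lowest share, 2.60%, in replicate 3 and its highest, 5.51%, in replicate 4, the same libraries that were lowest and highest for mitochondrial rRNA. The ratio of mitochondrial rRNA to Gm42418 was 0.268 to 0.356 in the 6 day 14 libraries and 0.426 to 0.529 in the 4 day 5 libraries. Neither group of libraries overlapped the other on this ratio.

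The 22 tRNA genes took 0.102% ± 0.0160 (SD, n = 4) of counts in day 14 off and 0.108% ± 0.00109 (SD, n = 2) in day 14 on. At day 5 they took 0.102% ± 0.0153 (SD, n = 2) off and 0.117% ± 0.00292 (SD, n = 2) on, so that both day 5 on libraries lay above those of day 14 on and day 5 off, while day 14 off overlapped all other groups. The serine tRNA mt-Ts1 alone made up 48.8% to 51.4% of the tRNA counts in day 14 off libraries and 58.7% to 61.7% in the other 6. It lies on the minus strand and overlaps the 3′ end of mt-Co1 by 3 bases. Its count was 0.288 to 0.328 of that of mt-Co1 in every library, a narrow range for genes on opposite strands.

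**Figure D2:**
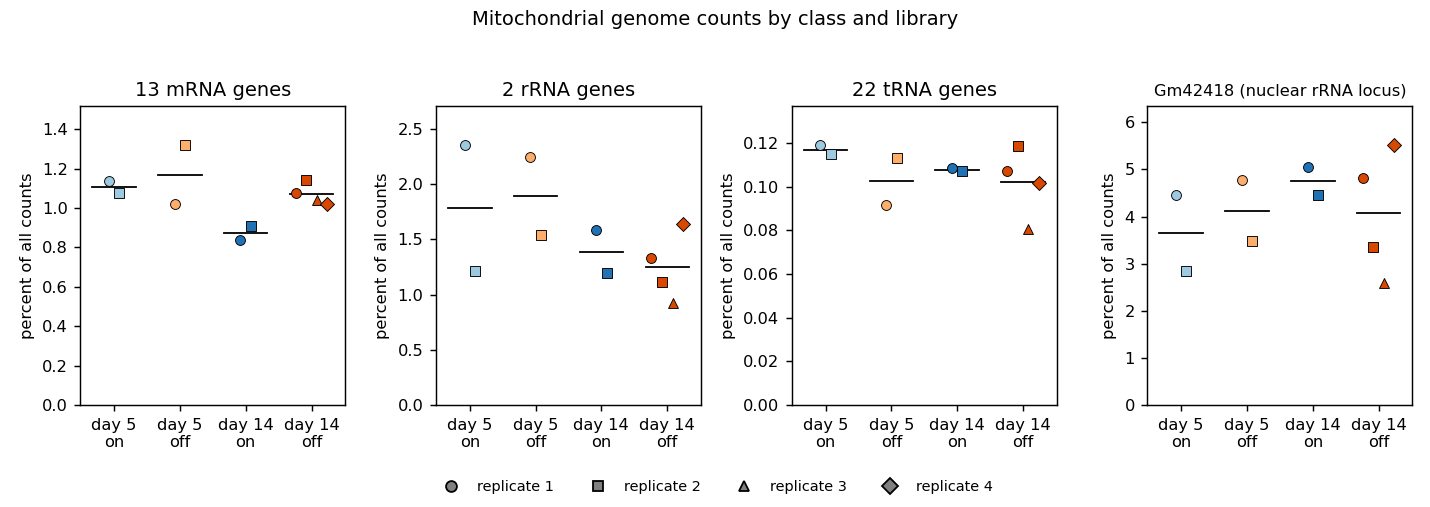
Percent of all counts (y axes) in the 13 mRNA, 2 rRNA and 22 tRNA genes and in Gm42418 by group; each symbol is 1 library and lines are group means. The day 14 on libraries have the lowest mRNA shares (0.839% and 0.910%), and the rRNA share spreads widely within groups.

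Turning R882H off was compared with on at day 14, the comparison that the design sets up for the longer treatment. The edgeR quasi-likelihood test, adjusted by Benjamini and Hochberg over all 15916 genes, called 9 of the 37 members higher and 0 lower at an adjusted p below 0.05. Over all tested genes 31.8% were called, 16.9% higher and 14.9% lower. Of the members 24.3% were called higher and 0 lower. In either direction their share called was thus below that of all tested genes, and among higher calls it was above. Whether these shares differ was not tested. No member was called lower, while 15 of 37 had an unadjusted p below 0.05. DESeq2 called the same 9, and limma voom called 11, the 9 with mt-Nd1 and mt-Atp6. The median log2 change of the members was 0.38, against 0.01 over all tested genes. By class, 6 of 13 mRNAs (46.2%), 3 of 22 tRNAs (13.6%) and 0 of 2 rRNAs were called. Without overlap between the groups, 16 members lay higher off than on and 3 lower, beside 27.9% and 24.6% of all tested genes.

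Complex I, the NADH dehydrogenase that takes electrons into the chain, has 7 mitochondrial subunit genes, of which 4 were called higher. Levels below are TMM-scaled CPM. mt-Nd2 (chrM:3914-4951) stood at 735, 814, 602 and 954 CPM in the 4 day 14 off libraries against 398 and 383 in day 14 on. Every off library lay above both on libraries, and the log2 change was 0.99 ± 0.21 (SE; edgeR adjusted p = 0.00529). At day 5 the gene was at 830 and 1092 CPM off and 812 and 555 on, so day 14 on was the lowest of the 4 groups.

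mt-Nd4l (chrM:9877-10173) changed most among the mRNA genes. It overlaps mt-Nd4 by 7 bases, and its count was 0.0222 to 0.0471 of that of mt-Nd4, so it need not mark a separate mRNA. It stood at 47.3, 43.1, 41.7 and 36.0 CPM in day 14 off against 17.2 and 17.3 in day 14 on, a log2 change of 1.28 ± 0.24 (edgeR adjusted p = 0.00278). The groups were far apart. The day 5 libraries, at 27.8 and 49.2 off and 46.8 and 32.0 on, covered the range of day 14 off. Its identical copy Gm10222 had a like pattern, at 40.8 ± 5.80 CPM (SD, n = 4) in day 14 off and 17.1 ± 0.232 (SD, n = 2) in day 14 on, which is not an independent measurement, since reads from either gene have the same sequence.

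mt-Nd3 (chrM:9459-9806) stood at 270, 252, 191 and 206 CPM in day 14 off and at 137 and 141 in day 14 on. The groups did not overlap and the log2 change was 0.72 ± 0.19 (edgeR adjusted p = 0.0152). In day 5 on it was 189 and 131 CPM, so for this gene day 14 on lay within the range of day 5 on. mt-Nd4 (chrM:10167-11544) was at 1004, 1103, 949 and 1025 CPM off and 683 and 781 on, a log2 change of 0.48 ± 0.14 (edgeR adjusted p = 0.0208). It too was lowest in day 14 on of all groups, since day 5 on stood at 1061 and 1053 CPM.

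The other 3 complex I genes were not called. mt-Nd1 had 946, 1025, 908 and 863 CPM off and 732 and 718 on, without overlap, and a log2 change of 0.37 ± 0.13 (edgeR adjusted p = 0.0551). mt-Nd5 overlapped (log2 0.39 ± 0.21, edgeR adjusted p = 0.189). mt-Nd6, the only mRNA gene on the minus strand, overlaps mt-Nd5 by 14 bases and had values in the opposite direction. It stood at 330, 330, 184 and 348 CPM off against 371 and 363 on, with a log2 change of -0.30 ± 0.23 (edgeR adjusted p = 0.344), and all off libraries lay below both on libraries.

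The single complex III gene, mt-Cytb (chrM:14145-15288), which encodes cytochrome b, was called. It stood at 1922, 1919, 1910 and 1800 CPM in day 14 off against 1031 and 1122 in day 14 on, a log2 change of 0.81 ± 0.15 (edgeR adjusted p = 0.00203). The off libraries were close together and well above the on libraries. At day 5 the levels were 1579 and 2260 off and 1474 and 1414 on, again above day 14 on.

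None of the 3 complex IV (cytochrome c oxidase) genes was called. mt-Co1 stood at 1790, 1807, 1337 and 1742 CPM off against 1967 and 1940 on, so that every off library was below both on libraries, with a log2 change of -0.23 ± 0.14 (edgeR adjusted p = 0.257). mt-Co2 was at 1116, 1055, 1071 and 961 CPM off against 886 and 920 on (log2 0.22 ± 0.12, edgeR adjusted p = 0.182), and mt-Co3 overlapped between groups (log2 0.15 ± 0.14, edgeR adjusted p = 0.466). Values of mRNA genes on the plus strand thus ranged from -0.23 for mt-Co1 to 1.28 for mt-Nd4l. Whether members differ from each other in their change was not tested.

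Of the 2 ATP synthase (complex V) genes, which overlap by reading frame on 1 shared mRNA, mt-Atp8 (chrM:7766-7969) was called and mt-Atp6 (chrM:7927-8607) was not. mt-Atp8 stood at 76.8, 67.6, 53.1 and 79.9 CPM off against 46.3 and 47.0 on, without overlap (log2 0.57 ± 0.18, edgeR adjusted p = 0.0340). mt-Atp6 stood at 819, 818, 790 and 707 CPM off against 534 and 656 on, also without overlap (log2 0.40 ± 0.14, edgeR adjusted p = 0.0520). With the counts of the 7 chromosome 1 copies added to their genes, an alternative chosen after the data were seen, mt-Atp6 was called too and 10 members were called in all.

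Neither rRNA was called. mt-Rnr1 stood at 3917, 3106, 2484 and 4993 CPM off and 4452 and 3133 on, and mt-Rnr2 at 9575, 7709, 6661 and 11929 CPM off and 11561 and 8482 on. The groups overlapped fully, with log2 changes of -0.07 ± 0.36 (edgeR adjusted p = 0.907) and -0.16 ± 0.31 (edgeR adjusted p = 0.725). Their standard errors were wider than those of any mRNA.

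Among the tRNAs, mt-Tt had the largest change of all members called. It stood at 19.3, 24.2, 11.4 and 16.6 CPM in day 14 off against 4.77 and 3.79 in day 14 on, a log2 change of 2.06 ± 0.32 (edgeR adjusted p = 0.000937). Every off library was also above the day 5 libraries, which stood at 6.81 and 8.93 off and 8.21 and 6.08 on. Both day 14 on libraries lay below all of the day 5 libraries. The gene follows mt-Cytb directly, and its count was 0.00338 to 0.0126 of that of mt-Cytb across the libraries, so it did not keep a fixed ratio to it.

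mt-Tp lies next to mt-Tt on the other strand. It stood at 39.7, 45.7, 22.4 and 33.9 CPM off against 21.97 and 18.0 on (log2 0.83 ± 0.25, edgeR adjusted p = 0.0297), and off replicate 3 was barely above on replicate 1. mt-Tq was at 10.9, 13.1, 7.16 and 10.2 CPM off against 2.59 and 4.25 on, without overlap (log2 1.58 ± 0.31, edgeR adjusted p = 0.00340). Day 5 levels of mt-Tq, at 6.08 and 7.71 off and 5.96 and 4.66 on, lay between those of the day 14 groups apart from an overlap with off replicate 3.

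The other 19 tRNAs were not called, and their log2 changes ran from -0.36 for mt-Te to 1.46 for mt-Tr. mt-Tr, mt-Tl2 and mt-Ts2 were counted at under 10 CPM in every library and had standard errors of 0.54, 0.48 and 0.87. The tRNAs mt-Tf, mt-Tv, mt-Tl1, mt-Tm, mt-Td, mt-Tk and mt-Tg all overlapped between the groups, with log2 changes from -0.32 for mt-Tv to 0.53 for mt-Tm. mt-Ti, whose count kept at 0.0621 to 0.0756 of that of its neighbour mt-Nd1, changed by 0.33 ± 0.14 (edgeR adjusted p = 0.0927), near the value of mt-Nd1. mt-Ts1 changed by -0.31 ± 0.15 (edgeR adjusted p = 0.135), near that of mt-Co1.

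**Figure D3:**
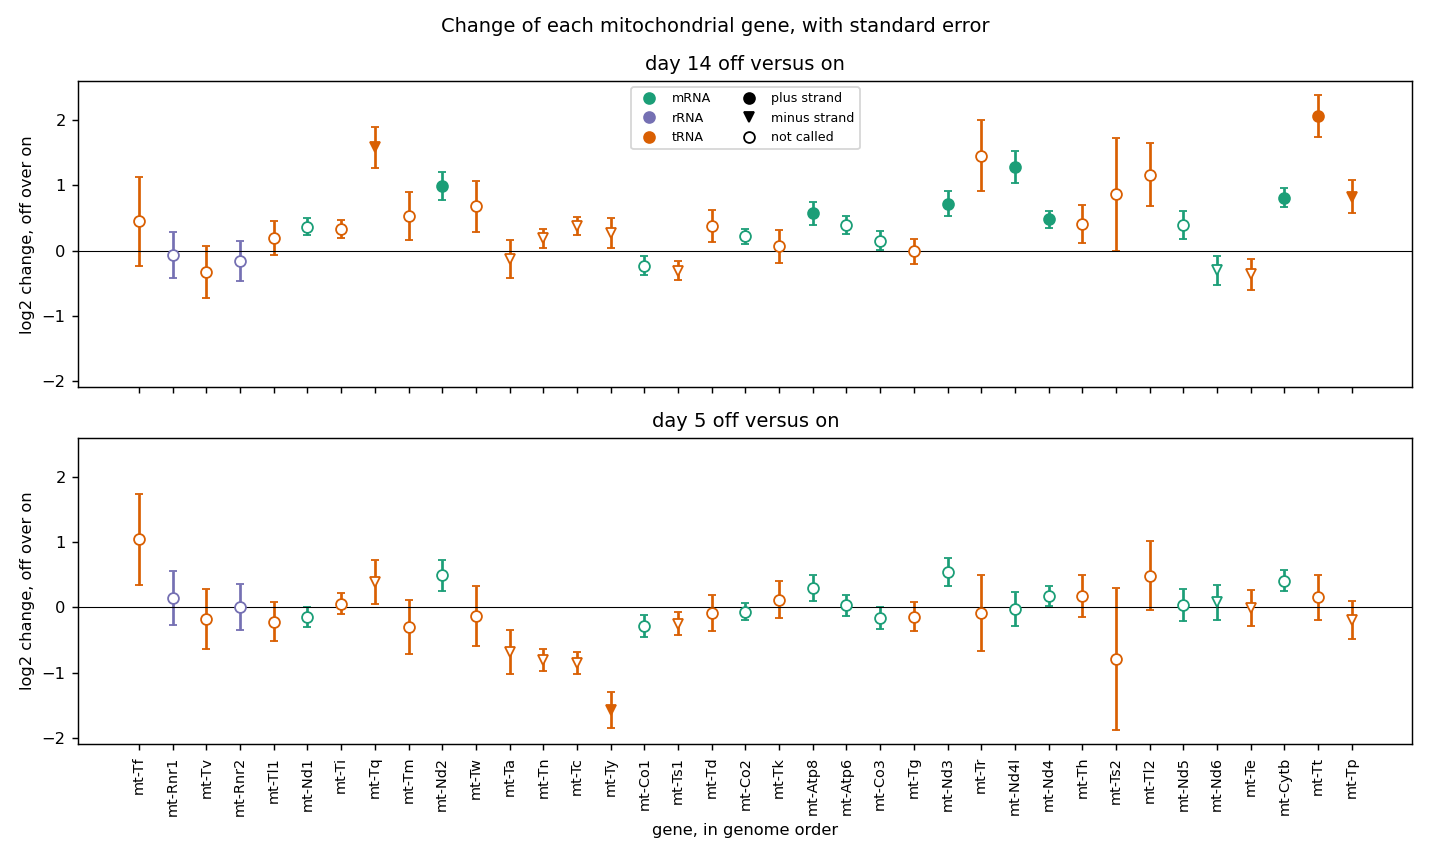
Log2 change, off over on, with its standard error (y axis) for the 37 genes in genome order (x axis) at day 14 (top) and day 5 (bottom); colour gives the class, triangles minus-strand genes, and filled symbols the called genes. At day 14 the 9 called genes are all higher and at day 5 mt-Ty alone is called, lower.

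**Figure D4:**
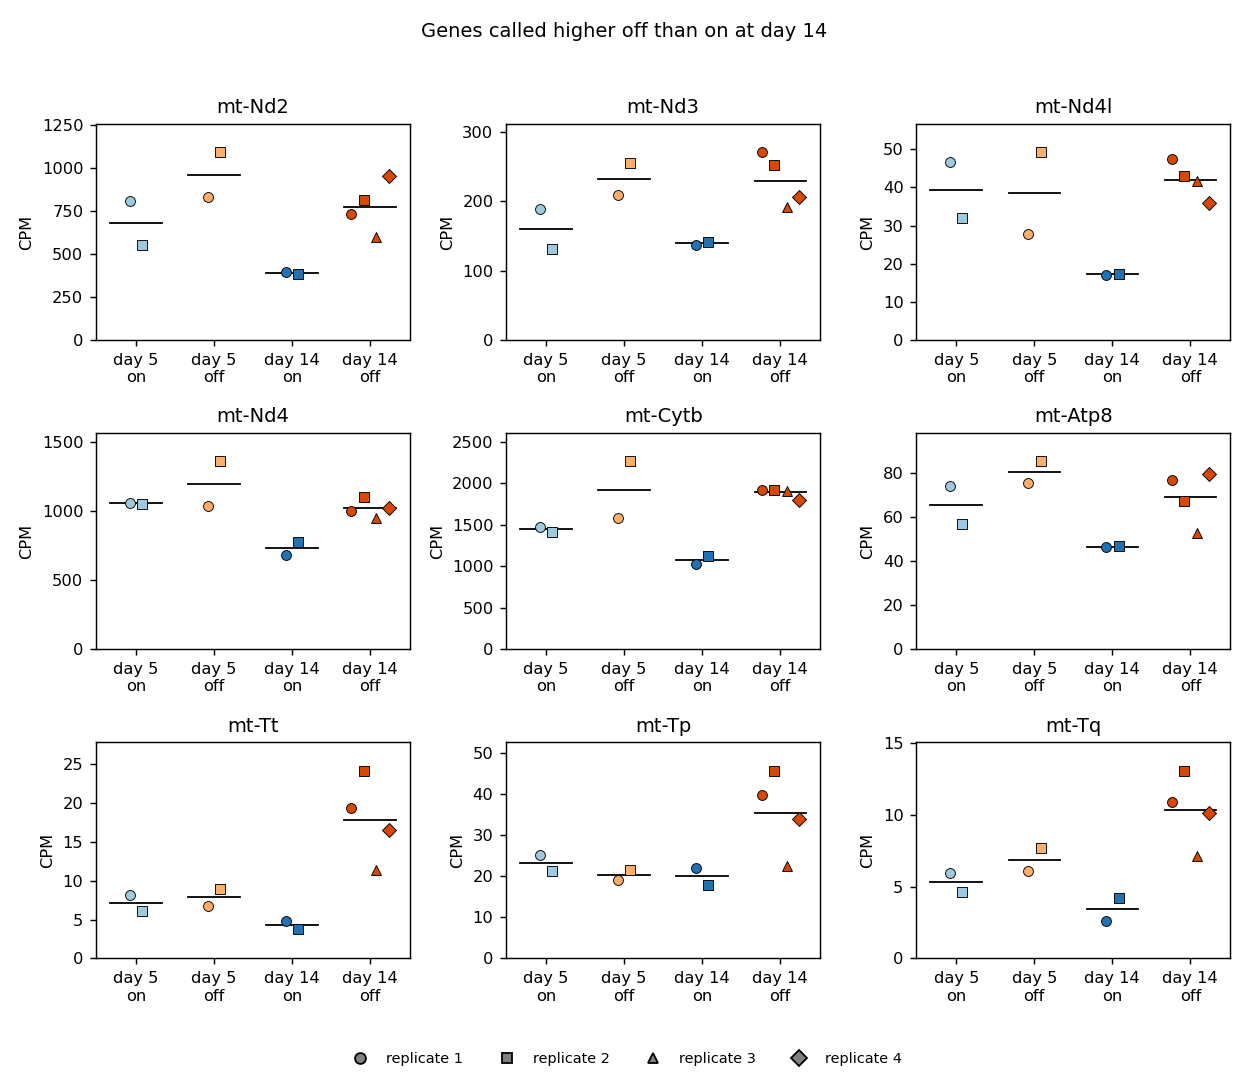
TMM-scaled CPM (y axes) of the 9 genes called at day 14 in each of the 10 libraries by group; symbols give the replicate and lines the group means. For mt-Nd2, mt-Nd4l, mt-Nd4, mt-Cytb, mt-Atp8, mt-Tt and mt-Tq the day 14 on libraries are the lowest of all. The group means of mt-Nd4l, mt-Tt, mt-Tp and mt-Tq are highest in day 14 off.

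Calls of mt-Tt, mt-Tq, mt-Nd4l and mt-Nd2 held in all 21 alternatives. That of mt-Cytb was lost in 1 and that of mt-Nd3 in 3. mt-Atp8 and mt-Nd4 lost theirs in 6 and mt-Tp in 7, for all 3 genes with any of day 14 off replicates 1, 2 and 4 or either day 14 on library left out. Leaving out either day 14 on library left 5 calls. With counts taken relative to the mitochondrial total instead of the library, 4 of the 9 calls held. mt-Cytb stood there at a log2 change of 0.77 (edgeR adjusted p = 0.105), near its value of 0.81 before. Fewer of all tested genes were called without either day 14 on library, so losses there were not particular to the members. Fewer were also called relative to the mitochondrial total. Every gene is divided by that total there, so the fall over all genes does not show why member calls were lost. Over the 21 alternatives the log2 change of mt-Tp ran from 0.66 to 1.10, that of mt-Atp8 from 0.48 to 0.66 and that of mt-Nd4 from 0.36 to 0.58. Other features of the cells moved with this comparison: the summed level of 8 erythroid genes was 2492 to 3019 CPM in day 14 off and 624 to 625 in day 14 on, with 6 of 8 called higher and none of the 8 at 0 in all libraries. Myeloid marker sums went the other way. The sum of 7 neutrophil genes was 649 to 981 CPM off and 1039 to 1866 on, with 2 called lower. That of 5 monocyte and macrophage genes was 63.5 to 68.9 off and 106 to 219 on, with 3 called lower, though not every gene of that list was lower off. Itgam (Cd11b), against which the cells were sorted, stood at 2.07 to 3.73 CPM off and 8.76 to 21.9 on. Their part in the result was not tested, and in bulk RNA fewer cells of a type and less RNA per cell cannot be told apart.

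At day 5, 1 of the 37 members changed when R882H was turned off, against 0.484% of all tested genes. The glutamine, threonine and proline tRNAs and all 13 mRNAs were not called, and the mRNAs had a median log2 change of 0.04. 1 member was called lower, beside 0.113% of all tested genes, and 0 higher, beside 0.371%. An unadjusted p below 0.05 was found for 5 members. mt-Nd3 and mt-Cytb, 2 of those 5, had log2 changes of 0.54 ± 0.21 and 0.41 ± 0.16 (edgeR adjusted p = 0.285 and 0.281).

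The called gene was mt-Ty. It stood at 4.23 and 4.14 CPM in day 5 off against 10.7 and 14.1 in day 5 on, a log2 change of -1.57 ± 0.27 (edgeR adjusted p = 0.0409). Its neighbours in the same minus-strand stretch had lower values off as well. mt-Tc stood at 27.5 and 30.4 CPM off against 45.4 and 58.8 on (log2 -0.85 ± 0.17, edgeR adjusted p = 0.0546), and mt-Tn at 26.7 and 28.6 against 42.0 and 54.6 (log2 -0.81 ± 0.17, edgeR adjusted p = 0.0657). mt-Ta, the alanine tRNA that ends the stretch, stood at 10.3 and 11.8 CPM off against 16.4 and 19.1 on. In all 4 genes the groups did not overlap. Over the 37 members 6 lay below and 5 above without overlap at day 5, beside 20.9% and 19.3% of all tested genes. The log2 change of mt-Ty kept between -1.78 and -1.32 in the 21 alternatives, but its call was lost in 10 of them, among them leaving out any day 14 off library, either day 5 off library or day 5 on replicate 2, and limma voom. Day 14 off libraries enter only the estimate of the spread here. Without 1 of them, 0 to 9 genes in all were called, and limma voom called 0, against 77 in the main fit. These losses were thus not particular to mt-Ty. Leaving out a day 5 library leaves 1 library in its group, which is then assumed to vary like the others. Of the 8 erythroid genes, 3 were called higher off than on at day 5, with summed levels of 353 to 985 CPM off and 339 to 798 on, and their part in the result was not tested.

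The 4 tRNAs lie within 309 bases of chrM and are read from the same strand as mt-Nd6. mt-Nd6, the mRNA gene of that strand, stood at 398 and 432 CPM in day 5 off and 450 and 334 in day 5 on, which overlapped. The count of mt-Tn was 0.877 to 1.04 of that of mt-Tc in all 10 libraries, while mt-Ty over mt-Tc ranged from 0.136 to 0.240.

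**Figure D5:**
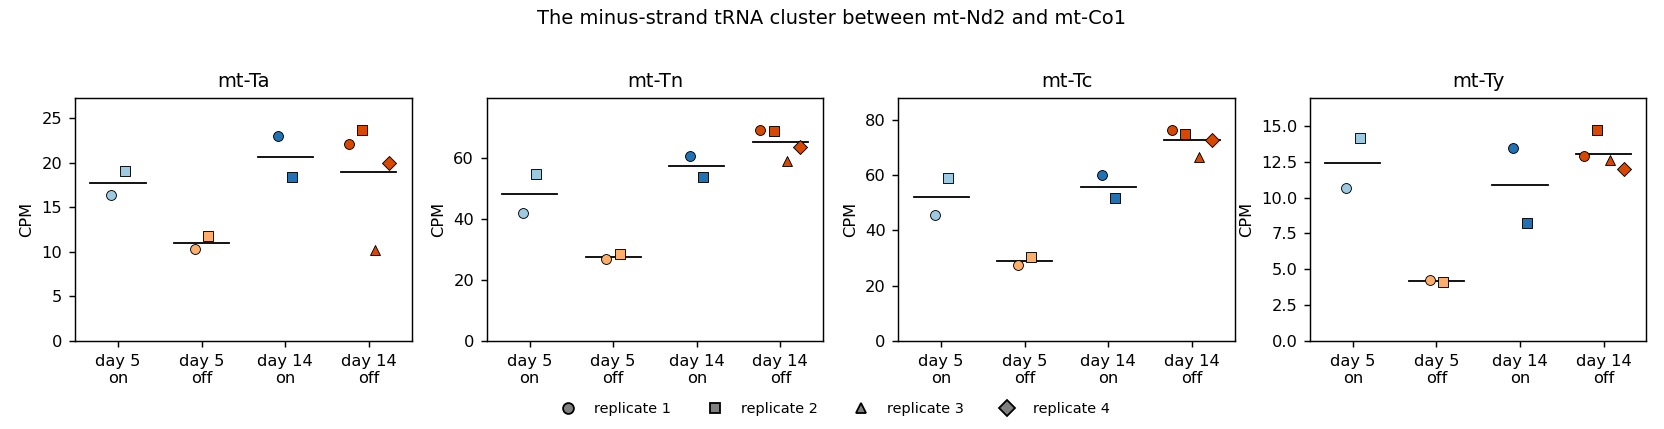
TMM-scaled CPM (y axes) of mt-Ta, mt-Tn, mt-Tc and mt-Ty by group, 1 symbol per library with group means as lines. The 2 day 5 off libraries are lower than both day 5 on libraries in each gene, and for mt-Tn, mt-Tc and mt-Ty they are the lowest of all 10.

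The effect of turning R882H off was also compared between days, as the day 14 change minus the day 5 change. 3 of 37 members were called, all with a higher value at day 14, beside 3.06% of all tested genes (1.65% higher and 1.41% lower): mt-Ty with 1.84 ± 0.36 (edgeR adjusted p = 0.0288), mt-Tc with 1.23 ± 0.22 (edgeR adjusted p = 0.0223) and mt-Tn with 0.996 ± 0.22 (edgeR adjusted p = 0.0414). None of the 13 mRNAs was called here, with a median of 0.31. The mRNA changes at day 14 are therefore not shown to differ from those at day 5. No member was called in the other direction, while 8 of 37 had an unadjusted p below 0.05. The count fell to 0 without day 14 off replicate 1, 2 or 4, day 14 on replicate 2 or day 5 off replicate 1, and to 1 without day 14 on replicate 1 or day 5 on replicate 2.

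Between days with R882H off, 4 members were called higher at day 14 and 0 lower, beside 10.1% and 6.94% of all tested genes (17% in all). These were mt-Tc (log2 1.33 ± 0.15, edgeR adjusted p = 0.00111), mt-Tn (log2 1.24 ± 0.15, edgeR adjusted p = 0.00137), mt-Ty (log2 1.64 ± 0.25, edgeR adjusted p = 0.00274) and mt-Tt (log2 1.18 ± 0.30, edgeR adjusted p = 0.0233). mt-Tc stood at 76.4, 74.9, 66.6 and 72.6 CPM at day 14, mt-Tn at 69.2, 68.8, 59.1 and 63.6, and mt-Ty at 12.9, 14.7, 12.6 and 11.95. All lay above the day 5 off libraries given before. Calls of mt-Tc, mt-Tn and mt-Ty need not be separate results here either. The mRNAs had a median log2 change of -0.09 and the rRNAs of -0.60, with none called. 8 members had an unadjusted p below 0.05, and 7 were called without day 14 off replicate 3. DESeq2 called 5 members higher and 1 lower, and limma voom 4 higher and 0 lower. Of the 8 erythroid genes, 7 were called higher at day 14 in this comparison, with summed levels of 2492 to 3019 CPM at day 14 and 353 to 985 at day 5, and their part in the result was not tested.

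Between days with R882H on, only mt-Nd4l was called, lower at day 14 (log2 -1.18 ± 0.27, edgeR adjusted p = 0.0495), beside 2.32% of all tested genes (1.36% lower and 0.968% higher). The call is at the edge of the threshold and was lost in 14 of 21 alternatives, among them leaving out any day 14 library or day 5 on replicate 1. The 13 mRNAs had a median log2 change of -0.42, and in 11 of them both day 14 libraries lay below both day 5 libraries. Over the 37 members 19 lay below and 0 above without overlap, beside 23.1% and 20.6% of all tested genes, and 8 had an unadjusted p below 0.05. The comparison uses the same day 14 on libraries as that of off with on at day 14.

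The nuclear genes that make, cut, modify and translate these RNAs were counted from 6 lists of 112 genes, of which 109 were tested. At day 14, 27 were called higher off than on and 2 lower, with a median log2 change of 0.31, beside 16.9% and 14.9% of all tested genes. Without day 14 on replicate 1 the calls were 9 higher and 3 lower, and relative to the mitochondrial total they were 6 higher and 1 lower. The list of RNA processing, stability and decay had 9 higher and 1 lower of 21 (median 0.51). Hsd17b10 was the gene called lower (-0.78 ± 0.27, edgeR adjusted p = 0.0452). The genes called higher include Lrpprc, which stabilises mitochondrial mRNAs (0.90 ± 0.18, edgeR adjusted p = 0.00345), and Supv3l1, a helicase of mitochondrial RNA decay (1.02 ± 0.19, edgeR adjusted p = 0.00243). The RNA-binding Fastkd2 (1.12 ± 0.20, edgeR adjusted p = 0.00221) and Ptcd3, a protein of the small mitochondrial ribosomal subunit (0.72 ± 0.15, edgeR adjusted p = 0.00386), were higher too. These are differences between the day 14 groups, not changes over time. From day 5 to day 14 with R882H off, Lrpprc changed by log2 0.77, Supv3l1 by 0.69, Fastkd2 by 0.31 and Ptcd3 by 0.14. With R882H on, the changes were 0.19, -0.53, -0.61 and -0.45.

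Of 21 genes of transcription and the nucleoid, 5 were higher (23.8%) and 1 lower (4.76%), beside 16.9% and 14.9% of all tested genes. The median was 0.00. Mterf1b was the gene called lower (-2.44 ± 0.65, edgeR adjusted p = 0.0142), at low group means of 0.35 CPM in day 14 off and 1.89 in day 14 on. The genes called higher included Tfam, which packages and activates the mitochondrial genome (0.64 ± 0.15, edgeR adjusted p = 0.00840), and the DNA helicase Twnk (1.04 ± 0.25, edgeR adjusted p = 0.00969). The protease Lonp1 was higher by 0.96 ± 0.20 (edgeR adjusted p = 0.00449) and the membrane ATPase Atad3a by 1.07 ± 0.23 (edgeR adjusted p = 0.00527). From day 5 to day 14 with R882H off, Lonp1 changed by log2 1.41, Atad3a by 1.27, Twnk by 0.84 and Tfam by 0.08. With R882H on, the changes were 0.25, -0.15, -0.37 and -0.58. Of 22 aminoacyl-tRNA synthetases, which charge the tRNAs, 5 were higher (22.7%) and 0 lower (median 0.47). Gars stood at 1.002 ± 0.13 (edgeR adjusted p = 0.000342) and Nars2 at 1.18 ± 0.21 (edgeR adjusted p = 0.00180). Tars2, the synthetase for threonine tRNA, changed by 0.96 ± 0.20 (edgeR adjusted p = 0.00497).

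For rRNA modification and assembly, 3 of 17 were higher (17.6%) and 0 lower, a share near the 16.9% higher of all tested genes. The 3 were Rcc1l (1.31 ± 0.24), Mrm2 (1.16 ± 0.23) and Mrm3 (0.99 ± 0.24), with edgeR adjusted p-values of 0.00201, 0.00343 and 0.0105. Mrm2 and Mrm3 methylate the large mitochondrial rRNA. For tRNA modification, 3 of 18 were higher (16.7%) and 0 lower, again near the share of all tested genes. They were the methyltransferase Nsun2 (0.91 ± 0.18), the pseudouridine synthase Pus1 (0.94 ± 0.23) and Trnt1, which adds the CCA end (0.48 ± 0.17). Their edgeR adjusted p-values were 0.00318, 0.0104 and 0.0461. The call of Trnt1 was lost in 17 of 21 alternatives. From day 5 to day 14 with R882H off, Nsun2 changed by log2 0.69, Pus1 by 0.73 and Trnt1 by -0.17. With R882H on, the changes were -0.28, 0.25 and -0.74. Of 10 tested translation factors, Mtif2 (0.60 ± 0.13, edgeR adjusted p = 0.00574) and Tufm (0.66 ± 0.16, edgeR adjusted p = 0.0102) were higher (20%) and 0 lower. From day 5 to day 14 with R882H off, Mtif2 changed by log2 0.009 and Tufm by 0.83. With R882H on, the changes were -0.61 and 0.26.

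At day 5, 0 of the 109 were called higher and 1 lower, beside 0.371% and 0.113% of all tested genes, with a median log2 change of -0.06. The gene was Mtg2, a GTPase of mitochondrial ribosome assembly (-1.02 ± 0.18, edgeR adjusted p = 0.0414). Its call was lost in 10 of 21 alternatives, among them leaving out any day 14 off library, either day 5 off library or day 5 on replicate 2. Without 1 day 14 off library, 0 to 9 genes in all were called at day 5.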

How the data were processed

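The 10 libraries measured polyA RNA by 3′ sequencing (QuantSeq, 75 to 100 base single-end reads), per the labels' protocols. HISAT2 2.0.4 and featureCounts of Subread 2.0.0 are named for build mm10 in the submitters' processing notes, beside bcl2fastq 2.17.1.14 and cutadapt 1.14. Their settings, strand, annotation and treatment of multiply mapping reads were not given in the sources used here. Values deposited by the authors are whole read counts for each Ensembl gene, not normalised. Of 52636 IDs, 52403 matched GENCODE release M21, which gave symbols, positions and sequences for all 37 members.

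The tests used edgeR 4.0.16 in R 4.3.3 (TMM scaling, filterByExpr, robust quasi-likelihood test). One fit covered all 10 libraries with a mean per group and Benjamini-Hochberg adjustment over 15916 genes. A member was called at an adjusted p below 0.05. Groups were taken from the sample titles. Alternatives were DESeq2 1.42.0, limma 3.58.1 (voom), other scalings and filters, a replicate block, the compared groups alone and leaving out each library. The fit was tested on simulated data.

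Named genes were all members, plus up to 4 called genes of smallest p per list and off over on comparison. Dnmt3a, Kit, Cd34, Itgam, Gm42418 and the chromosome 1 copies are named outside this rule, to describe the libraries. Hsd17b10 and Mterf1b are also named outside it, as the listed genes called lower at day 14. A gene that this rule names is not reported here. The members and lists were chosen with earlier results of these data known. The limit for a gene without counts, 3 counts of a library, was 0.209 to 0.323 CPM, for counting error only.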

Additional observations from a re-analysis of the deposited data

Results flagged for a closer look

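In 41 genes or sums, the 4 day 14 off libraries were searched for 1 library far from the rest, with the gap to the nearest library divided by the range and read against Dixon's limit for 4 values (chance alone picks about 1 in 20). 5 members were picked, each listed in CPM. Replicate 3 stood apart for mt-Co1, at 1337 against 1742 to 1807 in the other 3 libraries, for mt-Nd6, at 184 against 330 to 348, and for mt-Co3, where it was high at 2046 against 1538 to 1597. Replicate 1 was low for mt-Th, at 4.06 against 6.59 to 6.96. Replicate 4 was low for mt-Cytb, at 1800 against 1910 to 1922. Without replicate 3 of day 14 off, 12 members were called at day 14, the same 9 plus mt-Tl2, mt-Tr and mt-Tw.

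The effect of turning R882H off differed between days 14 and 5 for 3 members by the test of the difference itself. The difference on the log2 scale was 1.84 for mt-Ty (edgeR adjusted p = 0.0288), 1.23 for mt-Tc (edgeR adjusted p = 0.0223) and 0.996 for mt-Tn (edgeR adjusted p = 0.0414). All 3 lie side by side on the minus strand and may share reads, so they need not be 3 separate results. Each call was lost in some of 21 alternatives: in 8 for mt-Ty, 7 for mt-Tc and 11 for mt-Tn.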

How the results depend on the processing

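Over the single members and comparisons, 3736 values kept their side of the threshold under the alternatives, 77 calls were lost and 60 gained, and no called value changed sign. The sign of a value called in neither fit was not read. For off with on at day 14, calls over all tested genes also fell relative to the mitochondrial total. They changed little with a replicate block, so the rise in members called with the block was not matched over all tested genes. Members called moved as follows. For off with on at day 14, 9 became 4 relative to the mitochondrial total and 16 with a replicate block, which added mt-Atp6, mt-Nd1, mt-Td, mt-Ti, mt-Tl2, mt-Tr and mt-Tw, and leaving out 1 library gave 5 to 12. For off with on at day 5, 1 became 0 relative to the mitochondrial total, with limma voom and with only the groups compared, 3 with DESeq2 and with no low-count filter, and 2 with a replicate block (leaving out 1 library: 0 to 3). For day 14 with day 5 with R882H on, 1 became 0 with RLE scaling, scaling without the mitochondrial genes or without the rRNA locus, relative to the mitochondrial total, with limma voom, with only the groups compared and with the copies added (chosen after seeing the data), and 2 with no low-count filter, with DESeq2 and with a replicate block (0 to 2). With R882H off, 4 became 7 relative to the mitochondrial total, 10 (6 higher and 4 lower) with no low-count filter and 9 (7 higher and 2 lower) with a replicate block (3 to 7), and 1 was lower with DESeq2 and with only the groups compared. For the difference of the off effect between days, 3 became 0 relative to the mitochondrial total, 6 with no low-count filter, 5 with DESeq2 and 5 with a replicate block (0 to 3). The sources do not say what the replicate numbers share. Deviations of same-numbered libraries correlated at 0.0296 to 0.334. In a group of 2 libraries the deviations mirror each other, so some of these values repeat. The range therefore cannot show whether same-numbered libraries share anything. Of the listed nuclear genes, 29 called at day 14 became 7 relative to the mitochondrial total (12 to 33 leaving out 1 library), and 1 at day 5 became 0 there, with limma voom and with only the groups compared (0 to 1). The causes were not tested. With 2 libraries in 3 groups, a group left with 1 library is assumed to vary like the others.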
